A study of Arabidopsis thaliana with 18 samples.

Results

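Transcript levels of *nph4-1 arf19-1* protoplasts at Day 6 were set against those of WT protoplasts at Day 4. The members are the 3 libraries titled as Day 6 of *nph4-1 arf19-1* and the 3 titled as Day 4 of WT, 6 of the 18 libraries of the series. All 18143 genes with enough reads, of 24532 loci in the files, were followed across them. The question was which genes of the mutant at Day 6 stood where WT had stood 2 days earlier, and which did not. The series holds mRNA libraries of *Arabidopsis thaliana* leaf mesophyll protoplasts, which are leaf cells freed of their walls. Both genotypes were in the Col-0 background, and *nph4-1 arf19-1* carries loss-of-function alleles of *ARF7* (also called *NPH4*) and *ARF19*. Each genotype was sampled fresh (Day 0) and after 4 and 6 days of culture in alginate gel, with 3 libraries per genotype and day. Protoplasts came from rosette leaves, and all cultured ones, mutant and WT alike, received the synthetic auxin 2,4-D and the cytokinin-like thidiazuron in the dark. The characteristics field gives the treatment of the 3 mutant Day 6 libraries as yucasin, an inhibitor of auxin biosynthesis, whereas it gives control for WT Day 4 and for the other cultured libraries. The study's description of this experiment names no yucasin for the mutant, and the titles give none. Genotype, day and any such treatment cannot be told apart in this comparison. Only a small part of WT protoplasts form callus in this culture, so every library mixes dividing and non-dividing cells, and in such bulk samples fewer cells of a type and less RNA per cell cannot be told apart.

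ARF7 and ARF19 are transcription factors that bind auxin response elements in promoters and activate genes once auxin has led to the removal of the Aux/IAA repressors. Among their best known targets are the Aux/IAA genes themselves, a feedback loop that makes these genes a common readout of auxin response. Cultured mesophyll cells leave a resting state, re-enter the cell cycle and form callus under auxin and cytokinin. A mutant that merely does this more slowly would show, at a later day, the transcript levels that WT had at an earlier day. A gene that lies beyond both WT days at the mutant's Day 6 cannot be placed between them by any such shift within these days.

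Read totals were 3438524 to 6690737 in the mutant Day 6 libraries, 5976036 to 7378993 in WT Day 6 libraries and 5698515 to 6564391 in WT Day 4 libraries. Levels are given below as TMM-scaled CPM, the reads of a gene scaled to a common library size, and differences as log2 fold changes (log2FC) with the mutant at Day 6 or WT at Day 6 over WT at Day 4. WT Day 4 replicate 1 stood apart from its group: its counts differed from replicates 2 and 3 by 13.0 units of chi-square per gene or more, whereas replicates 2 and 3 differed by 4.76, and mutant Day 6 libraries differed among themselves by 4.63 to 5.01. The counts of called genes and of the main classes are therefore also given without it, but counts over gene lists are given only with it. The median absolute difference in log2 CPM was 0.451 to 0.563 between mutant Day 6 and WT Day 4 libraries, 0.544 to 0.676 between mutant Day 6 and WT Day 6 libraries, and 0.188 to 0.232 among the mutant Day 6 libraries. The comparisons of the mutant at Day 6 with WT at Day 4 and at Day 6, and of both WT days with each other, share libraries, so their values are given side by side.

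Both targeted genes were lower in the libraries labelled as mutant. *ARF7* had 13.6, 13.1 and 13.8 CPM in the mutant at Day 6, against 38.8, 35.9 and 33.7 CPM in WT at Day 4 (log2FC -1.42 ± 0.12 SE, FDR 1.68e-08). *ARF19* had 10.1, 7.06 and 9.13 CPM in the mutant at Day 6, against 60.9, 50.9 and 42.9 CPM in WT at Day 4 (log2FC -2.58 ± 0.18, FDR 5.2e-10). Both genes kept some reads in every mutant library, and neither group of libraries overlapped the other.

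At the limits used in the study, |log2FC| above 2 with FDR below 0.01, 649 genes were higher (3.58% of the genes tested) and 306 were lower (1.69%) in the mutant at Day 6 than in WT at Day 4, together 5.26%. In WT, 133 genes (0.733%) rose and 258 (1.42%) fell between Day 4 and Day 6 by the same limits, 2.16% together. The mutant at Day 6 differed from WT at Day 6 in 11.3% of genes, 1243 higher (6.85%) and 806 lower (4.44%). The median of all genes was -0.03 for the mutant at Day 6 over WT at Day 4. Scaling by read totals in place of TMM lowered that median to -0.29 and changed the split to 497 higher and 472 lower, so that higher genes made up 51.3% of the calls with totals and 68.0% with TMM. Without WT Day 4 replicate 1, 814 genes were higher and 345 lower than in WT at Day 4, 1288 higher and 812 lower than in WT at Day 6, and 120 genes rose and 190 fell in WT between Days 4 and 6.

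The classes below use a wider limit, |log2FC| above 1 with FDR below 0.01, by which 1784 genes (9.83%) were higher and 1365 (7.52%) lower in the mutant at Day 6 than in WT at Day 4, 17.4% together. Against WT at Day 6 the same limits called 15.2% of genes higher and 13.3% lower, 28.4% together. A gene was said to fit a 2-day lag when it changed in WT between Days 4 and 6, when the mutant at Day 6 differed from WT at Day 6 on the Day 4 side, and when the whole 95% interval of the mutant at Day 6 over WT at Day 4 lay within 1 log2 unit of 0. By this limit 853 genes (4.7%) rose and 1094 (6.03%) fell in WT. Of these 1947 genes (10.7% of the genes tested), 475 fitted a lag, or 24.4% of them and 2.62% of all genes tested. Of the lag genes, 149 (0.821% of all genes tested) had risen and 326 (1.8%) fallen in WT. A further 80 (4.11% of the 1947) had reached the WT Day 6 level and are called no lag, 40 in each direction, and 4 stood part of the way, different from both days. Against the direction of the WT change, 537 genes (27.6%) lay outside both WT days, and 34 lay beyond WT Day 6. The remaining 817 (42.0%) met none of these definitions. Of those, 507 missed the lag class only by their interval, the smallest of which reached 1 log2 unit, while the widest interval among the lag genes reached 0.997. Without WT Day 4 replicate 1, 396 genes fitted a lag, 333 of them shared with the 475. With read totals 473 did, of which 271 were shared.

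**Figure D1:**
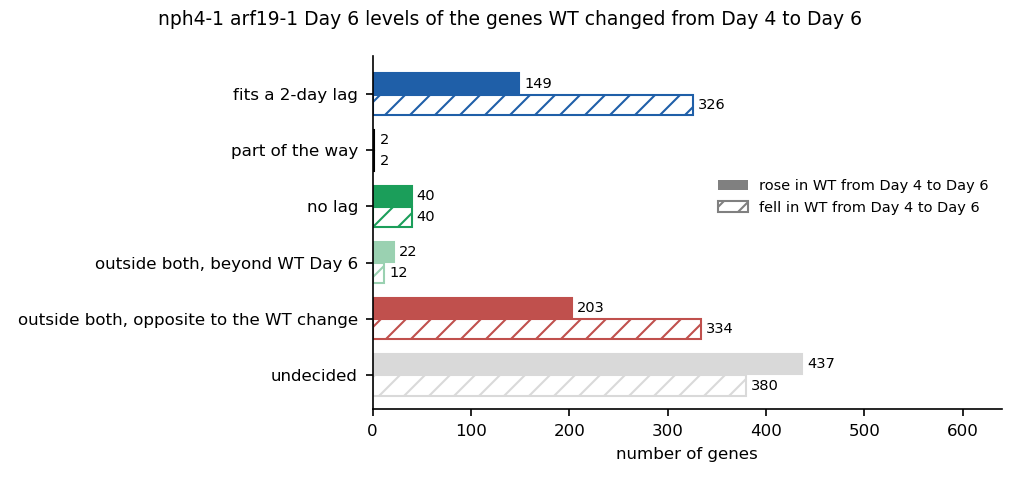
Numbers of the 1947 genes that rose (filled) or fell (hatched) in WT between Days 4 and 6, by where the mutant stood at Day 6. With TMM, 149 and 326 genes fitted a 2-day lag, and 203 and 334 lay outside both WT days against the WT change. With read totals the order depended on direction: 221 and 252 fitted a lag, and 336 and 222 lay outside against the WT change.

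Over all tested genes, 2507 (13.8%) stood outside both WT days at the mutant's Day 6, which is 79.6% of the 3149 genes called at this limit against WT Day 4. They were divided by the level in fresh WT protoplasts. Toward Day 0 lay 446 genes (2.46% of all tested) that were higher and 799 (4.4%) that were lower than on both cultured WT days. Outside all 3 WT days lay 833 higher (4.59%) and 123 lower (0.678%) genes, and for 194 higher and 112 lower ones Day 0 did not decide. A level difference of less than 1 log2 unit from both WT days, interval included, was found for 7086 genes (39.1%), and 7991 (44.0%) met no definition. These counts moved with 1 library and with the scaling: without WT Day 4 replicate 1 there were 573 higher and 787 lower genes toward Day 0 and 891 higher and 133 lower genes outside all 3 days, and with read totals there were 159 higher and 1691 lower genes toward Day 0.

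**Figure D2:**
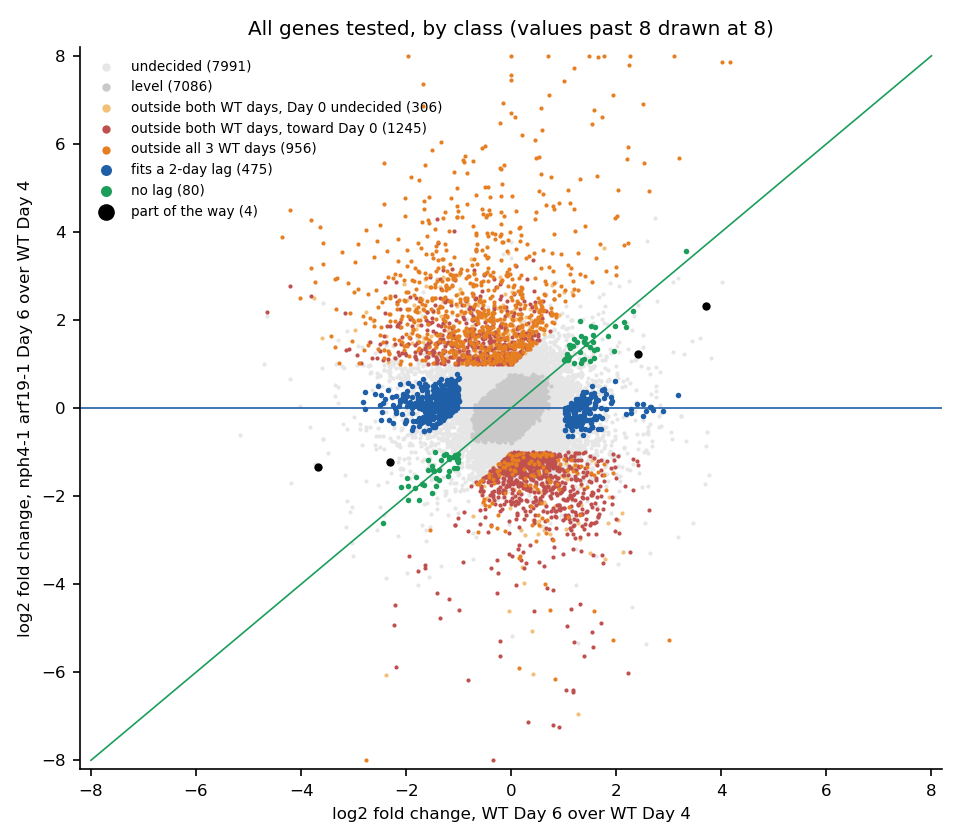
Each of the 18143 genes by its log2FC of WT Day 6 over WT Day 4 (x) and of the mutant at Day 6 over WT Day 4 (y), coloured by class. Genes that fit a lag lie along the horizontal line and genes with no lag along the diagonal; values past 8 are drawn at 8, and those of genes without reads in a group depend on the prior count.

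Auxin-inducible genes fell into more than 1 class, and 3 Aux/IAA genes show it. Their promoters are given first, because the results that follow turn on genes that auxin response factors are known to bind. The sequences run from 250 bases before to 50 after the annotated start, on the gene's strand, from RefSeq TAIR10.1, with auxin response elements (TGTCTC or TGTCGG, on either strand) in capitals: *IAA1* at chr4:8360746-8361045 (plus strand), *IAA5* at chr1:5366448-5366747 (minus strand) and *IAA19* at chr3:5263751-5264050 (plus strand).
IAA1: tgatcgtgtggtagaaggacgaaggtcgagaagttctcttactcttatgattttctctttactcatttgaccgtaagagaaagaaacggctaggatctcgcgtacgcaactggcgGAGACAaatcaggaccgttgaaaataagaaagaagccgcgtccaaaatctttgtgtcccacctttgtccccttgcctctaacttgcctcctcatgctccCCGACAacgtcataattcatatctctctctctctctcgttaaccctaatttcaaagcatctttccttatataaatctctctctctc
IAA5: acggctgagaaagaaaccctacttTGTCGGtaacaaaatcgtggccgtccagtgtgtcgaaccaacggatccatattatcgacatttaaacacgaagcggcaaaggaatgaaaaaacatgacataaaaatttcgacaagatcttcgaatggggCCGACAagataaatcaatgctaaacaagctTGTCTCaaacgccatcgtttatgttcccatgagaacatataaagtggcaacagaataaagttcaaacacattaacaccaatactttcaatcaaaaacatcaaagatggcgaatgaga
IAA19: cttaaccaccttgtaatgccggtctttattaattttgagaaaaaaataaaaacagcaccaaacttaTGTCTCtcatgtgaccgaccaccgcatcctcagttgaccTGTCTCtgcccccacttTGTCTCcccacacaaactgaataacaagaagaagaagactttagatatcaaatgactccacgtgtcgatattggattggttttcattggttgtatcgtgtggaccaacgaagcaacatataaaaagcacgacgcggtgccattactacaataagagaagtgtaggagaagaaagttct
The first holds 2 such elements and the others 3 each, and at least 1 was found in 18.4% of the 17872 promoters of tested genes and in 10 of 20 promoters of the Aux/IAA list. A match of 6 letters is a description of the sequence and not a binding site.

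*IAA1*, *IAA5* and *IAA19* encode short-lived repressors of auxin response and were chosen here after their values were seen. *IAA1* had 56.8, 48.5 and 45.1 CPM in the mutant at Day 6 and 131, 117 and 194 CPM in WT at Day 6, against 53.7, 39.4 and 56.1 CPM in WT at Day 4. The mutant at Day 6 thus overlapped WT at Day 4 (log2FC 0.01, FDR 0.958) and lay below every WT Day 6 library, and *IAA1* fitted a lag. It had also risen in the mutant between Days 4 and 6 (log2FC 1.24, FDR 3.85e-05). *IAA5* had 4.24, 5.49 and 3.13 CPM in the mutant at Day 6 and 80.1, 76.8 and 142 CPM in WT at Day 6, against 34, 26.6 and 36.8 CPM in WT at Day 4 (log2FC -2.85, FDR 2.67e-07). *IAA19* had 6.27, 4.84 and 4.44 CPM in the mutant at Day 6 and 168, 139 and 172 CPM in WT at Day 6, against 85.3, 93.6 and 96.5 CPM in WT at Day 4 (log2FC -4.13, FDR 1.43e-12). Both genes lay below both WT days without overlap. The mutant's values of *IAA19* at Day 4, 3.27, 4.67 and 4.27 CPM, differed from its Day 6 values by log2FC 0.37 with FDR 0.253.

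Of the 20 Aux/IAA genes tested, none was higher and 4 were lower at |log2FC| above 2, and 1 was higher and 7 lower at |log2FC| above 1. Of all genes, 3.58% were higher and 1.69% lower by the first limit, and 9.83% and 7.52% by the second. The median of the list was -0.55 in the mutant at Day 6 and 0.69 in WT at Day 6, both over WT Day 4, beside -0.03 and 0.01 for all genes. *IAA29* had 1 read in the mutant at Day 6, with 0, 0 and 0.261 CPM, against 5.29, 6.22 and 8.27 CPM in WT at Day 4, a ratio of 111 with a counting interval of 19.6 to 4400. The auxin conjugating enzymes of the GH3 family moved in both directions. *GH3.1* had 7.56, 9.15 and 7.83 CPM in the mutant at Day 6 and 197, 239 and 303 CPM in WT at Day 6, against 94.2, 67.4 and 90.9 CPM in WT at Day 4 (log2FC -3.34 ± 0.23, FDR 1.75e-09). *GH3.17*, whose enzyme conjugates auxin to glutamate, was higher, with 102, 119 and 160 CPM in the mutant at Day 6 and 2.4, 3.31 and 1.96 CPM in WT at Day 6, against 7.31, 5.18 and 3.06 CPM in WT at Day 4 (log2FC 4.59 ± 0.23, FDR 8.26e-12).

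Auxin transport genes were also read. *LAX2*, which encodes an auxin influx carrier, had 0.553, 0.523 and 1.57 CPM in the mutant at Day 6 and 24.9, 20.2 and 33.9 CPM in WT at Day 6, against 28.7, 23.2 and 40.5 CPM in WT at Day 4 (log2FC -5.28 ± 0.54, FDR 1.49e-08). Of 8 carrier genes tested, 3 were lower at |log2FC| above 1 and none was higher, with a median of -0.77. By this limit 7.52% of all genes were lower and 9.83% higher.

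Genes that rose in WT and fitted a lag, 0.821% of all genes tested, included 2 of 12 expansins and 1 of 6 trehalose phosphatases tested. *EXPA10*, an expansin that loosens growing walls, had 121, 122 and 152 CPM in the mutant at Day 6 and 304, 386 and 462 CPM in WT at Day 6, against 145, 90.1 and 102 CPM in WT at Day 4 (log2FC 0.23 ± 0.18, FDR 0.318). *TPPD*, a trehalose 6-phosphate phosphatase, had 18.4, 21.7 and 13.3 CPM in the mutant at Day 6 and 108, 143 and 88.2 CPM in WT at Day 6, against 14.1, 23.5 and 16.4 CPM in WT at Day 4. *PDF2.1*, a defensin-like peptide gene, had 9.77, 9.28 and 4.96 CPM in the mutant at Day 6 and 54, 75.4 and 55.4 CPM in WT at Day 6, against 6.64, 7.65 and 6.11 CPM in WT at Day 4. For all 3 genes the mutant at Day 6 overlapped WT at Day 4 and lay below every WT Day 6 library. Over the 12 expansins tested, 2 fitted a lag, and the median was -0.70 in the mutant at Day 6 and 1.05 in WT at Day 6, over WT Day 4. Another phosphatase of the same family lay below both WT days: *TPPJ* had 0, 0.392 and 0 CPM in the mutant at Day 6 and 25.5, 22.1 and 26.9 CPM in WT at Day 6, against 14, 11.1 and 16.5 CPM in WT at Day 4. Its ratio between WT at Day 4 and the mutant at Day 6 was 78.3, with a counting interval of 26.6 to 382.

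**Figure D3:**
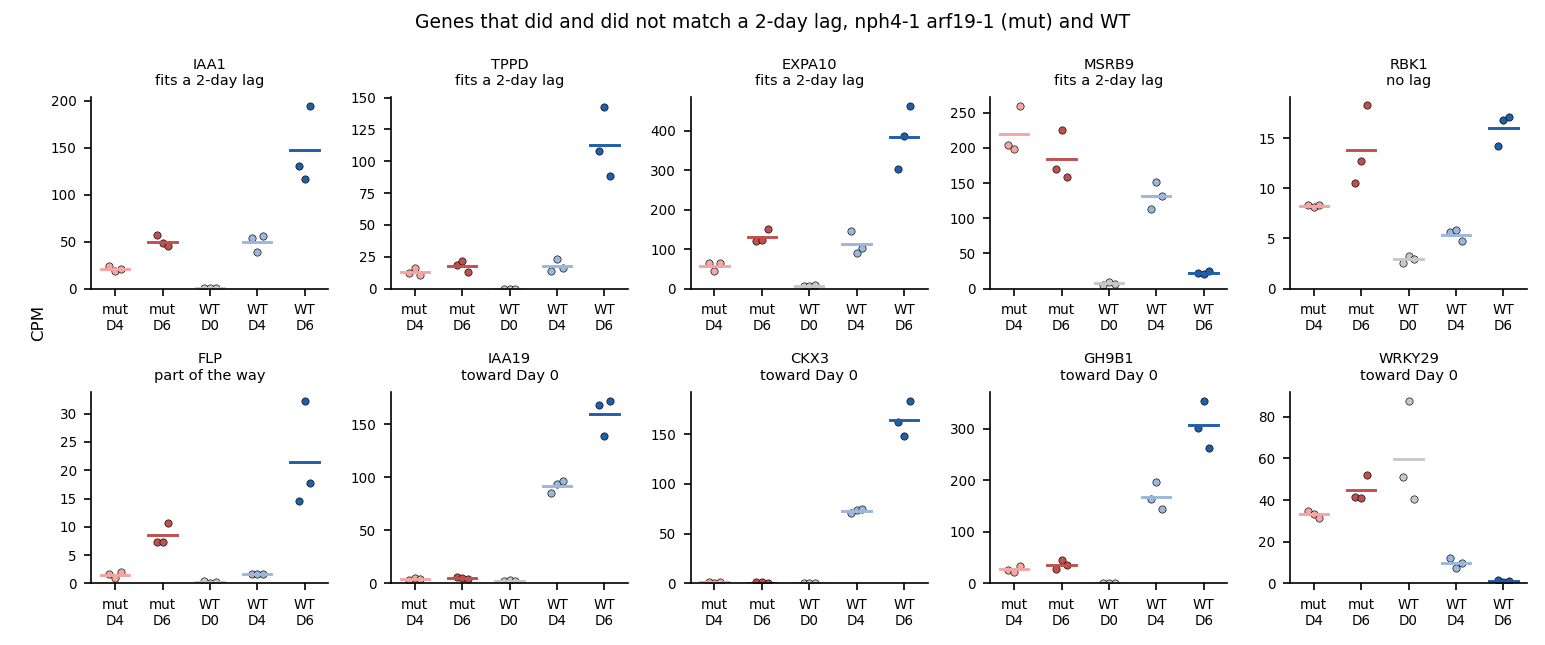
CPM of 10 genes in each library (points) with group means (bars), in the mutant at Days 4 and 6 and in WT at Days 0, 4 and 6. *IAA1*, *TPPD*, *EXPA10* and *MSRB9* at mutant Day 6 lie within the margin of their WT Day 4 levels, *RBK1* at WT Day 6, *FLP* between the WT days, and *IAA19*, *CKX3*, *GH9B1* and *WRKY29* beyond both.

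More genes that fell in WT fitted a lag than genes that rose, and stress and phenylpropanoid genes were among them. The promoter of *MSRB9*, a methionine sulfoxide reductase gene and the named lag gene of this direction that holds a W box (TTGACC or TTGACT on either strand, in capitals), is shown for comparison with a W-box promoter of a gene outside the WT range further on. It lies at chr4:11592376-11592675 on the minus strand.
MSRB9: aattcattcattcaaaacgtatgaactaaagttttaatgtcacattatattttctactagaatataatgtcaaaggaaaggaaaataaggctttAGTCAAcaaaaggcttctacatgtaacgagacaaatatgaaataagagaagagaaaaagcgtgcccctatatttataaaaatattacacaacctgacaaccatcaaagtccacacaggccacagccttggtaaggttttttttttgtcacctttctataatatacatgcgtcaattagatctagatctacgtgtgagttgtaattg
*MSRB9* had 170, 226 and 158 CPM in the mutant at Day 6 and 22.5, 20.4 and 25.3 CPM in WT at Day 6, against 113, 152 and 131 CPM in WT at Day 4 (log2FC 0.49 ± 0.18, FDR 0.0288). The mutant at Day 6 lay above WT at Day 4 without overlap, but by less than the margin of the class. W boxes, which WRKY factors are known to bind, were found in 48.8% of the promoters of lag genes that fell in WT (137 of 281), in 21.4% of those of lag genes that rose in WT and in 33.6% of all promoters. No test was made of these shares.

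*4CL2*, an enzyme at the entry of lignin and flavonoid synthesis, had 206, 209 and 202 CPM in the mutant at Day 6 and 34.1, 43.3 and 47.4 CPM in WT at Day 6, against 176, 178 and 169 CPM in WT at Day 4 (log2FC 0.24 ± 0.21, FDR 0.364), again slightly above each WT Day 4 library. Across 8 phenylpropanoid and flavonoid genes the median was 0.65 in the mutant at Day 6 and -2.06 in WT at Day 6, over WT Day 4. Of 12 heat shock genes, 3 fitted a lag and 4 were higher toward Day 0, beside 2.62% and 2.46% of all genes. The medians of the 12 were 0.17 and -1.86. The first of these medians was -0.10 with read totals, so its sign depends on the scaling. Genes of tryptophan synthesis (8 tested) had medians of 0.59 and -1.22.

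Part of the transcripts of the mitochondrial genome also fitted a lag, a class that held 1.8% of all genes tested in the falling direction. Of 115 mitochondrial loci tested, 42 fitted a lag, all in the falling direction, 4 were higher than on both WT days, 4 were level and 65 met no definition. Their median was 0.2 in the mutant at Day 6 over WT at Day 4 (-0.06 with totals), -1.19 in WT at Day 6 over WT at Day 4 and 1.66 in the mutant at Day 4 over WT at Day 4, and 88 of them fell in the mutant between Days 4 and 6. They took 0.418, 0.417 and 0.434% of reads in the mutant at Day 6 and 0.206, 0.243 and 0.214% in WT at Day 6, against 0.284, 0.429 and 0.499% in WT at Day 4. The lowest of the WT Day 4 shares is that of replicate 1. Libraries were made from poly(A)-selected RNA, and the part of organelle polyadenylation in these shares was not tested. Nuclear genes of the respiratory chain, by contrast, had a median of 0.63. Of 62 tested, 12 were higher and none lower at |log2FC| above 1, beside 9.83% and 7.52% of all genes.

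Few genes had reached the WT Day 6 level. *RBK1*, a receptor-like cytoplasmic kinase that binds ROP GTPases, had 10.5, 12.7 and 18.3 CPM in the mutant at Day 6 and 14.2, 16.8 and 17.1 CPM in WT at Day 6, against 5.63, 5.83 and 4.71 CPM in WT at Day 4 (log2FC 1.32 ± 0.19, FDR 9.28e-06). *WOX11*, a homeobox gene known for the start of adventitious roots and callus, had 8.48, 12.2 and 11.5 CPM in the mutant at Day 6 and 10.8, 11.1 and 19.1 CPM in WT at Day 6, against 3.6, 2.2 and 3.18 CPM in WT at Day 4 (log2FC 1.83 ± 0.3, FDR 9.86e-05), a class it lost with read totals and in 3 of 9 fits that left out 1 library. In the falling direction, AT2G24600, an ankyrin repeat gene, had 10.5, 14.1 and 12.3 CPM in the mutant at Day 6 and 10.4, 8.93 and 10.8 CPM in WT at Day 6, against 34.8, 37.7 and 57.7 CPM in WT at Day 4 (log2FC -1.8 ± 0.22, FDR 1.39e-06). For these genes the mutant at Day 6 overlapped WT at Day 6 and not WT at Day 4, without a delay on this scale. *FLP*, a MYB factor that limits divisions in the stomatal lineage, stood part of the way with 7.37, 7.32 and 10.7 CPM in the mutant at Day 6 and 14.6, 32.2 and 17.8 CPM in WT at Day 6, against 1.58, 1.68 and 1.65 CPM in WT at Day 4 (log2FC 2.32 ± 0.41, FDR 6.18e-05).

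Cell cycle genes differed by list: 98 of 174 G2/M-specific genes were lower, against 16 of 38 core G2/M genes, 5 of 12 core S genes and none of 24 core G1/S genes, at |log2FC| above 1. The promoter of *CDC20.2*, an activator of the anaphase-promoting complex, is shown because G2/M genes are known to carry MSA elements, the site of MYB3R factors. It lies at chr4:16043500-16043799 on the minus strand, with the MSA core (AACGG on either strand) in capitals.
CDC20.2: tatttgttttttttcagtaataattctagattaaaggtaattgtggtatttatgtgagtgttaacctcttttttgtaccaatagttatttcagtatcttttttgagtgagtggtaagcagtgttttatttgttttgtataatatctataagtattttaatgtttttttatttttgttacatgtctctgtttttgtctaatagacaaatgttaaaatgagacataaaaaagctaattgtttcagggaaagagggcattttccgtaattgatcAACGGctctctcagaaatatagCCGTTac
Both cores lie after the annotated start. The core of 5 letters was found in 26.7% of all promoters, in 67.8% of those of the G2/M-specific genes and in 15.7% of those of genes higher than on all 3 WT days.

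*CDC20.2* had 4.42, 3.53 and 1.83 CPM in the mutant at Day 6 and 39.1, 45.7 and 31.1 CPM in WT at Day 6, against 11.3, 26.2 and 14.8 CPM in WT at Day 4 (log2FC -2.34 ± 0.37, FDR 1.67e-05). *MYB3R4*, the MYB activator of G2/M genes, had 4.05, 2.88 and 4.17 CPM in the mutant at Day 6 and 21.7, 23.4 and 17.8 CPM in WT at Day 6, against 9.23, 10.8 and 7.64 CPM in WT at Day 4 (log2FC -1.35 ± 0.27, FDR 0.000232). Both lay below every WT Day 4 library. Its paralog *MYB3R1* had 6.45, 9.94 and 10.7 CPM in the mutant at Day 6, against 15.8, 16.3 and 12.6 CPM in WT at Day 4, a log2FC of -0.73 ± 0.19 that stayed within the limit of 1.

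Among 174 genes specific to G2/M, taken by the study from an earlier list of phase-specific genes and not chosen on these samples, 2 were higher and 98 lower at |log2FC| above 1, beside 9.83% and 7.52% of all genes. Their median was -1.44 in the mutant at Day 6 and 1.12 in WT at Day 6, over WT Day 4. Only 5 fitted a lag and 1 stood part of the way, whereas 80 were lower toward Day 0, 7 were lower than on all 3 WT days, 11 were lower with Day 0 undecided, 4 were level and 66 met no definition. The core G2/M regulators (38 tested, 16 lower and none higher) had medians of -0.85 and 0.85. Of 169 S-specific genes, 2 were higher and 40 lower with a median of -0.72, 33 lay toward Day 0 and 29 were level. Of 31 histone genes, 9 were lower and none higher. The 24 core G1/S genes gave no call in either direction, with a median of -0.25, but only 7 were level, 1 fitted a lag and 16 met no definition. Against WT at Day 6, 1 of them was higher and 5 were lower. With read totals the medians of the G2/M-specific and core G1/S genes over WT Day 4 were -1.71 and -0.52, beside -0.29 for all genes.

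Hormone genes other than those of auxin were among the lowest of all. *CKX3*, a cytokinin oxidase that breaks down cytokinin, had 0.921, 1.18 and 0 CPM in the mutant at Day 6 and 162, 148 and 183 CPM in WT at Day 6, against 70.5, 73.5 and 75.1 CPM in WT at Day 4 (log2FC -6.44 ± 0.45, FDR 1.35e-11). *GA1*, the enzyme of the first committed step of gibberellin synthesis, had 0.184, 0.131 and 0 CPM in the mutant at Day 6, from 2 reads, against 18.2, 19.1 and 23.6 CPM in WT at Day 4, a ratio of 171 with a counting interval of 47.0 to 1410. *LOG3*, which releases active cytokinin from its nucleotide, had a single read in the mutant at Day 6 (0.184, 0 and 0 CPM), against 7.2, 9.98 and 11.8 CPM in WT at Day 4, a ratio of 162 with a counting interval of 28.7 to 6420. In none of these did a mutant Day 6 library come near a WT Day 4 library. Fresh WT cells were also low. At WT Day 0, *CKX3* had 0, 0 and 0 CPM, *GA1* had 0.198, 0 and 0.209 CPM, and *LOG3* had 0.396, 0.135 and 0 CPM. The CKX family was not lower as a whole: *CKX2* had 18.8, 17.6 and 30.8 CPM in the mutant at Day 6 and 0.801, 0.331 and 0.84 CPM in WT at Day 6, against 2.59, 1.94 and 0.891 CPM in WT at Day 4 (log2FC 3.57 ± 0.34, FDR 1.79e-08). Of 7 type-A response regulators, which are induced by cytokinin, 4 were higher and none lower at |log2FC| above 1, with a median of 1.14. By this limit 9.83% of all genes were higher and 7.52% lower.

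Wall genes moved in both directions, at a limit by which 9.83% of all genes were higher and 7.52% lower: of 20 XTH genes 6 were higher and 3 lower at |log2FC| above 1 (median 0.45), of 34 extensin and arabinogalactan protein genes 6 were higher and 8 lower (median -0.04), of 12 expansins none was higher and 1 lower, and of 6 cellulose synthases none was higher and 1 lower. The 3 genes described next were lower: an endoglucanase outside these lists, an XTH gene, and a water channel that is not a wall gene. *GH9B1*, an endoglucanase of growing tissues, had 28.7, 44.5 and 35.7 CPM in the mutant at Day 6 and 302, 353 and 263 CPM in WT at Day 6, against 163, 196 and 145 CPM in WT at Day 4 (log2FC -2.2 ± 0.17, FDR 5.9e-09). *XTH4*, a xyloglucan endotransglucosylase, had 5.53, 6.93 and 3.65 CPM in the mutant at Day 6 and 134, 130 and 88.6 CPM in WT at Day 6, against 35.3, 65.8 and 55.5 CPM in WT at Day 4 (log2FC -3.21 ± 0.36, FDR 2.23e-07). *DELTA-TIP*, a water channel of the vacuolar membrane, had 26.4, 35.7 and 35.2 CPM in the mutant at Day 6 and 407, 389 and 475 CPM in WT at Day 6, against 134, 184 and 240 CPM in WT at Day 4 (log2FC -2.52 ± 0.24, FDR 1.18e-07). All 3 genes lay below both WT days without overlap. Aquaporins as a list gave 1 higher and 7 lower of 14, with a median of -1.29. The next genes act in defence or were named for their low values. *ESM1*, a modifier of glucosinolate breakdown, had 1.29, 1.18 and 4.44 CPM in the mutant at Day 6, against 56.8, 143 and 204 CPM in WT at Day 4 (log2FC -6.06 ± 0.95, FDR 2.18e-06), the lowest WT value being that of replicate 1. *LOX2*, an enzyme of jasmonate synthesis, had 118, 95.6 and 94.4 CPM in the mutant at Day 6 and 307, 181 and 235 CPM in WT at Day 6, against 521, 756 and 819 CPM in WT at Day 4 (log2FC -2.76 ± 0.21, FDR 7.27e-09), which was below the WT Day 0 level too. *MRD1*, among the lowest genes, was already low in fresh mutant cells: it averaged 0.259 CPM in the mutant at Day 0, against 37.1 CPM in WT at Day 0 (log2FC -7.08, FDR 1.57e-12), and had 0.553, 0.261 and 0.261 CPM in the mutant at Day 6, against 21.9, 24.4 and 21 CPM in WT at Day 4.

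Genes higher than on all 3 WT days included many of ER bodies, spindle-shaped compartments that hold beta-glucosidases and are known from roots, seedlings and wounded leaves. *PYK10* (chr3, 2840477 to 2843781, TAIR10.1), the main beta-glucosidase of root and seedling ER bodies, had 4940, 5770 and 5590 CPM in the mutant at Day 6 and 90.6, 106 and 133 CPM in WT at Day 6, against 91.6, 97.7 and 51.2 CPM in WT at Day 4 (log2FC 6.08 ± 0.26, FDR 2.52e-11). *NAI2*, needed to form ER bodies, had 1150, 1180 and 1270 CPM in the mutant at Day 6 and 54.9, 53.6 and 77.2 CPM in WT at Day 6, against 116, 106 and 72.9 CPM in WT at Day 4 (log2FC 3.61 ± 0.18, FDR 1.91e-10). *JAL30*, a jacalin lectin that binds PYK10, had 2600, 2910 and 2530 CPM in the mutant at Day 6 and 28, 31.2 and 36.8 CPM in WT at Day 6, against 21, 22.3 and 15 CPM in WT at Day 4 (log2FC 7.1 ± 0.16, FDR 5.74e-14). No WT library of any day came near these mutant values. The lectin genes are close copies, and the share of their reads that mapped to 1 place alone may have been split among them.

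Of 15 genes of the ER body list, chosen after values were seen, 12 were higher at |log2FC| above 1 and none was lower, beside 9.83% and 7.52% of all genes. The median of the 15 genes was 3.43 in the mutant at Day 6 and -0.67 in WT at Day 6, over WT Day 4. 12 of them stood outside all 3 WT days, 1 was level and 2 fitted a lag. Those 2 were *NAI1*, the bHLH factor that controls ER body genes, with 90.5, 103 and 85.8 CPM in the mutant at Day 6 and 18.4, 13.8 and 22.8 CPM in WT at Day 6, against 60.5, 61.8 and 55.1 CPM in WT at Day 4, and *MEB1*, a membrane protein of ER bodies, with 76.1, 93.2 and 109 CPM in the mutant at Day 6 and 19.9, 16.7 and 26.2 CPM in WT at Day 6, against 61.9, 73.7 and 63.8 CPM in WT at Day 4. *NAI1* kept the lag class in only 5 of 9 fits that left out 1 library. The leaf type of ER body differed: *BGLU18*, the beta-glucosidase of wound-induced leaf ER bodies, had 7.74, 5.36 and 7.04 CPM in the mutant at Day 6 and 4.8, 5.73 and 4.01 CPM in WT at Day 6, against 21.9, 53 and 54 CPM in WT at Day 4 (log2FC -2.7 ± 0.32, FDR 7.4e-07).

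**Figure D4:**
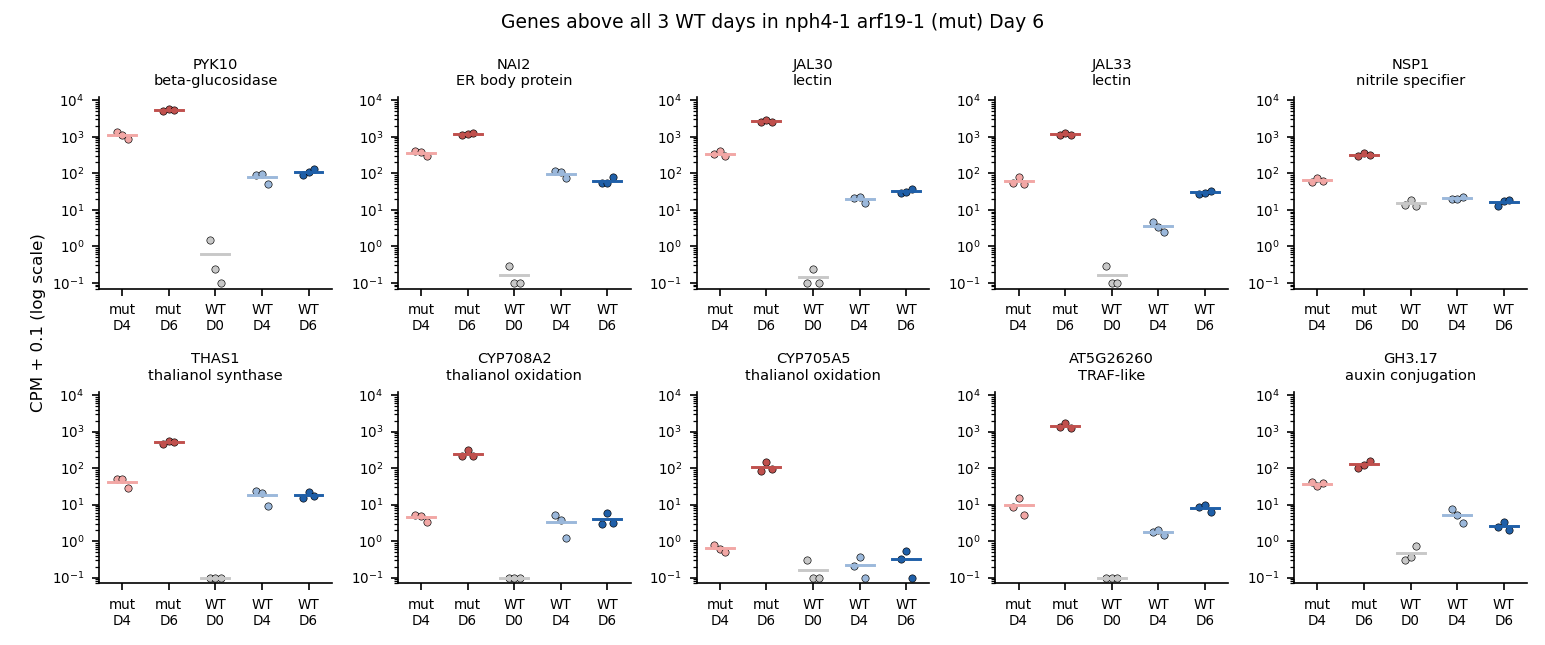
CPM + 0.1 on a log axis of 10 genes higher than on all WT days, in each library (points) with group means (bars), in the mutant at Days 4 and 6 and in WT at Days 0, 4 and 6. The mutant Day 6 libraries lie above every WT library; *PYK10* averaged 1110 CPM in the mutant at Day 4.

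Other gene groups of specialized metabolism rose with them. *NSP1*, a nitrile specifier that directs glucosinolate breakdown, had 299, 359 and 322 CPM in the mutant at Day 6 and 12.8, 16.9 and 18.2 CPM in WT at Day 6, against 20.3, 19.8 and 21.9 CPM in WT at Day 4 (log2FC 3.98 ± 0.15, FDR 4.04e-13). *THAS1* (chr5, 19456837 to 19461706, TAIR10.1), the first enzyme of the root triterpene thalianol, had 464, 561 and 505 CPM in the mutant at Day 6 and 15.2, 22.5 and 16.8 CPM in WT at Day 6, against 23.5, 21 and 9.29 CPM in WT at Day 4 (log2FC 4.82 ± 0.25, FDR 2.35e-10). *CYP708A2*, which acts next in that pathway, had 214, 319 and 217 CPM in the mutant at Day 6 and 2.86, 5.85 and 2.99 CPM in WT at Day 6, against 5.06, 3.76 and 1.15 CPM in WT at Day 4 (log2FC 6.21 ± 0.33, FDR 5.41e-11). All 5 genes tested of the thalianol and marneral list were higher, each outside all 3 WT days. *CYP705A5*, whose gene lies beside them, had 84.8, 144 and 97 CPM in the mutant at Day 6, against 0.113, 0.259 and 0 CPM in WT at Day 4, a ratio of 932 with a counting interval of 318 to 4520. *CYP705A12*, of the marneral cluster, had 4.61, 9.41 and 9.39 CPM in the mutant at Day 6 and no read in any WT Day 4 library, at least 64.1-fold higher against a floor of 3 reads over the group.

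AT5G26260, a gene of the TRAF-like family (chr5, 9200271 to 9202461, TAIR10.1), was among the genes with the largest differences, with 1360, 1750 and 1280 CPM in the mutant at Day 6 and 8.46, 9.93 and 6.07 CPM in WT at Day 6, against 1.69, 1.94 and 1.4 CPM in WT at Day 4 (log2FC 9.75 ± 0.36, FDR 4.02e-12). It averaged 9.46 CPM in the mutant at Day 4. *JAL33*, another jacalin lectin gene, had 1100, 1310 and 1140 CPM in the mutant at Day 6 and 26.5, 29.4 and 33.5 CPM in WT at Day 6, against 4.5, 3.37 and 2.42 CPM in WT at Day 4 (log2FC 8.41 ± 0.23, FDR 5.74e-14). Both genes rose in WT as well, and the mutant at Day 6 lay beyond WT Day 6 in the same direction. *UGT72E1*, which glucosylates monolignol aldehydes, had 59, 54.4 and 56.9 CPM in the mutant at Day 6 and 0.114, 0.221 and 0.373 CPM in WT at Day 6, against 3.83, 3.5 and 2.42 CPM in WT at Day 4 (log2FC 4.11 ± 0.2, FDR 4.02e-12).

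In the WRKY, PR and salicylic acid lists more genes were higher than lower, as counted below. The promoter of *WRKY9* is shown to set beside that of *MSRB9*, W boxes again in capitals. It lies at chr1:25543699-25543998 on the plus strand.
WRKY9: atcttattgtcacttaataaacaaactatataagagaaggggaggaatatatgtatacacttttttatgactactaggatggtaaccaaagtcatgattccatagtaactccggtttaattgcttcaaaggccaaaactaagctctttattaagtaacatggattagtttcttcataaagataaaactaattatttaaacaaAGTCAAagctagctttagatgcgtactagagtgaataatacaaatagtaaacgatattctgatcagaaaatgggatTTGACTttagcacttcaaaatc
It holds 2 W boxes, 1 of them after the start. W boxes were found in 46.1% of the promoters of genes higher than on all 3 WT days, in 50.2% of those higher toward Day 0 and in 32.2% of those of level genes. *WRKY9*, a WRKY factor, had 12.2, 15.2 and 19.3 CPM in the mutant at Day 6 and 0.343, 0.441 and 0.187 CPM in WT at Day 6, against 1.46, 0.778 and 0.382 CPM in WT at Day 4 (log2FC 4.07 ± 0.38, FDR 5.33e-09). *WRKY29*, a factor of the response to microbial patterns, had 41.3, 40.9 and 52.2 CPM in the mutant at Day 6 and 1.37, 0.551 and 1.31 CPM in WT at Day 6, against 12.4, 7.52 and 9.67 CPM in WT at Day 4 (log2FC 2.16 ± 0.26, FDR 1.5e-06), with a mean of 59.6 CPM in WT at Day 0. So a gene with a W box in this window could fit a lag, as *MSRB9* did, or lie outside both WT days.

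For the lists of this paragraph, 9.83% of all genes were higher and 7.52% lower at |log2FC| above 1. Of 57 WRKY genes, 21 were higher and 3 lower at |log2FC| above 1, with a median of 0.67 in the mutant at Day 6 and -0.24 in WT at Day 6, over WT Day 4. 4 of them fitted a lag, 7 were higher toward Day 0 and 11 were higher than on all 3 WT days. Of all genes, 2.62%, 2.46% and 4.59% did so. *PR4*, a pathogenesis-related protein, had 5020, 5240 and 6780 CPM in the mutant at Day 6 and 289, 249 and 476 CPM in WT at Day 6, against 1530, 1010 and 1030 CPM in WT at Day 4 (log2FC 2.26 ± 0.24, FDR 5.81e-07). *CBP60G*, a regulator of salicylic acid synthesis, had 160, 152 and 189 CPM in the mutant at Day 6 and 18.2, 18 and 23.2 CPM in WT at Day 6, against 52.9, 27 and 29.8 CPM in WT at Day 4 (log2FC 2.18 ± 0.19, FDR 3.6e-08). For both genes every mutant Day 6 library lay above every cultured WT library. Other members went the other way. Of 5 PR markers tested, 3 were higher and 1 lower, and of 13 salicylic and pipecolic acid genes 3 were higher and 1 lower. Cysteine-rich receptor-like kinases gave 13 higher and none lower of 36, with medians of 0.73 and -1.36. Glutathione transferases gave 14 higher and 1 lower of 30. *GSTF6*, one of them, had 10200, 8230 and 9910 CPM in the mutant at Day 6 and 1080, 1080 and 1560 CPM in WT at Day 6, against 2280, 2160 and 2490 CPM in WT at Day 4 (log2FC 2.03 ± 0.18, FDR 3.06e-08). Some of these lists already differed in fresh cells. Medians of the mutant over WT at Day 0 were 1.33 for the receptor-like kinases, 0.38 for WRKY genes and 0.1 for glutathione transferases, beside 0.02 for all genes. PR markers had 3.81, and salicylic and pipecolic acid genes 1.44.

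Of 17 genes that make indole glucosinolates and camalexin from tryptophan, 8 were higher and 2 lower at |log2FC| above 1, beside 9.83% and 7.52% of all genes. Their median was 0.57 in the mutant at Day 6 and -1.21 in WT at Day 6, over WT Day 4. *CYP79B2*, which turns tryptophan into indole-3-acetaldoxime, had 1000, 969 and 1130 CPM in the mutant at Day 6 and 71.1, 85 and 75.5 CPM in WT at Day 6, against 555, 418 and 268 CPM in WT at Day 4 (log2FC 1.32 ± 0.19, FDR 1.07e-05). WT Day 4 replicate 1 had the highest of the WT values.

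The state of the mutant at Day 4 was read next. At |log2FC| above 1, 1592 genes (8.77%) were higher and 1043 (5.75%) lower in the mutant at Day 4 than in WT at Day 4, 14.5% together. Of the 149 lag genes that rose in WT, 18 rose in the mutant between Days 4 and 6, 2 fell, and 72 moved by less than 1 log2 unit, interval included. Their median change in the mutant was 0.40, beside 1.35 in WT. Of the 326 lag genes that fell in WT, 127 fell in the mutant, with medians of -0.62 and -1.40, and 135 had been higher in the mutant at Day 4 than in WT at Day 4. By this limit 4.36% of all genes rose and 3.84% fell in the mutant between these days, 8.2% together. The change between these days differed between the genotypes at |log2FC| above 2 in 3.03% of genes, 2.57% with a more positive and 0.457% with a more negative change in the mutant (467 and 83 genes, or 382 and 82 without WT Day 4 replicate 1). Of the 833 genes higher than on all 3 WT days, 432 rose in the mutant between Days 4 and 6 and 370 were already above WT Day 4 at the mutant's Day 4. Of the 799 genes lower toward Day 0, 499 were already below WT Day 4 at the mutant's Day 4 and 45 fell further.

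Markers of the cell types that a leaf preparation could hold were read in the same libraries. At |log2FC| above 1, the limit used here, 9.83% of all genes were higher and 7.52% lower. None of 7 mesophyll markers was called, with a median of -0.26, and 73 nuclear photosynthesis genes had a median of -0.04 with none higher and 3 lower. Of 4 epidermal markers tested, 2 were higher and none lower, and their summed level was 30.5 to 32.1 CPM in the mutant at Day 6 and 17.4 to 23.4 CPM in WT at Day 4. The 2 were *KCS6* (also *CER6*), an enzyme of wax synthesis, with 15.8, 19.2 and 18.8 CPM in the mutant at Day 6, against 13.2, 5.7 and 7.77 CPM in WT at Day 4 (log2FC 1.00, FDR 0.00142), and *LP1* (also *LTP1*), a lipid transfer protein gene, with 8.48, 6.01 and 4.7 CPM in the mutant at Day 6, against 2.25, 3.63 and 2.42 CPM in WT at Day 4 (log2FC 1.23, FDR 0.00824). Both calls were lost with read totals and in several fits that left out 1 library. The other epidermal markers tested, *ANL2* and *FDH*, averaged 4.77 and 2.25 CPM in the mutant at Day 6, against 4.6 and 3.37 CPM in WT at Day 4. The epidermal marker *PDF1* had no reads in either group. Of 4 guard cell markers tested, 1 was lower and none higher, with a summed level of 9.95 to 11.0 CPM in the mutant at Day 6 and 12.3 to 14.3 CPM in WT at Day 4. That gene, *MYB60*, averaged 1.12 CPM in the mutant at Day 6 and 4.36 CPM in WT at Day 4, and *FAMA*, a guard cell factor, averaged 6.19 CPM in the mutant at Day 6 and 5.86 CPM in WT at Day 4. The phloem markers *APL* and *PP2-A1* and the xylem markers *VND6* and *IRX1* had no reads in either group. The part of other cell types in the results above was not tested. Of 3 phloem markers tested, 1 was lower and none higher at |log2FC| above 1. That gene, *SUC2*, a companion cell sucrose transporter, had 0.921, 1.7 and 1.57 CPM in the mutant at Day 6, against 12.4, 12.8 and 8.02 CPM in WT at Day 4 (log2FC -2.95 ± 0.43, FDR 2.05e-06). *SULTR2;1* averaged 1.5 CPM in the mutant at Day 6 and 1.31 CPM in WT at Day 4, and *GLDP1* 43.5 and 72.7 CPM.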

How the data were processed

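Protoplasts of both genotypes were sampled for mRNA sequencing as described above. RNA was extracted with an RNeasy kit, libraries were made with a Kapa stranded mRNA kit and single-end reads were obtained on a NextSeq500. The authors mapped the reads with Bowtie 0.12.9 to TAIR 10, kept uniquely mapped reads and deposited raw read counts per gene model for each library. The counting tool and its use of strand are not given in the sources used here, so reads of overlapping genes and of near-identical copies may be shared or lost. Within each locus the lowest-numbered splice variant was used.

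Counts of all 18 libraries were fitted with 1 mean per genotype and day by the quasi-likelihood test of edgeR 4.0.16 (R 4.3.3), with TMM factors on the authors' totals, after filterByExpr (minimum count 10, minimum total 15). P-values were adjusted by the Benjamini-Hochberg method over the 18143 genes tested and are printed as FDR. The study made 3 biological replicates per group; the labels do not say which plants each came from. The p-values measure the spread between these libraries. Intervals of ratios and the floor of 3 reads (0.28 to 0.783 CPM over 1 library) cover counting error only.

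Named genes were *ARF7*, *ARF19*, *MYB3R1* and *MYB3R4*, the 6 highest and 6 lowest genes against WT Day 4 with at least 10 CPM and groups that did not overlap, the 4 most changed genes per class and direction, and the lowest, highest and most abundant member of each list with at least 5 CPM, from which the text describes a part. The members and lists were chosen with earlier results of these data known. The lists of ER bodies, nitrile specifiers, receptor-like kinases, glutathione transferases and trehalose phosphatases, and the organelle genomes, were added after values were seen and support nothing. Promoters came from the RefSeq annotation of TAIR10.1 and were found for 17872 tested genes. The fit was tested on simulated data. Alternatives were read totals without TMM, DESeq2 1.42.0, other filters, limits and margins, a replicate block, all splice variants, the 6 libraries alone and each library left out. 1 named gene is not reported here.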

Additional observations from a re-analysis of the deposited data

Results flagged for a closer look

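The change between Days 4 and 6 was compared between the genotypes by the genotype-by-time term of the same edgeR fit. At |log2FC| above 2 and FDR below 0.01, it was more positive in *nph4-1 arf19-1* than in WT for 467 genes and more negative for 83. Among the genes named above that rose beyond WT Day 6, AT5G26260 differed by 5 log2 units (FDR 6.54e-06), and all 3 mutant Day 6 libraries lay above all other cultured libraries. *JAL33* rose in both genotypes and differed by 1.18 log2 units (FDR 0.00743). AT4G28940, a gene with 83.1, 128 and 111 CPM in the mutant at Day 6 and 0.114, 0 and 0.0934 CPM in WT at Day 6, against 0.45, 0.259 and 0.255 CPM in WT at Day 4, differed by a fitted 7.51 log2 units (FDR 1.54e-05), a value that depends on the prior count because WT at Day 6 had few reads.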

How the results depend on the processing

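No called result reversed its direction under any alternative, and 28 of 129 called genes among the 214 named lost the call under at least 1. With read totals in place of TMM, 472 genes were lower than in WT at Day 4 and 1258 lower than in WT at Day 6, the genotype-by-time term gave 157 lower genes, 8 genes stood part of the way, and 159 higher and 1691 lower genes lay toward Day 0; 9 of 62 list medians changed sign. With a limit of |log2FC| above 2 in the classes, lag genes numbered 12 that rose and 28 that fell, no lag 3, part of the way 0, toward Day 0 77 higher and 192 lower, outside all 3 WT days 402 higher and 23 lower, and Day 0 undecided 115. With a margin of log2(1.5) there were 33 and 102 lag genes, 27 with no lag and 2141 level ones. A mean count of at least 10 left 83 genes that rose in WT. A limit of |log2FC| above 1 gave 1784 higher and 1365 lower genes against WT Day 4, and FDR below 0.05 with no fold limit gave 4405 and 4438. Leaving out 1 library at a time gave 634 to 814 higher and 250 to 345 lower genes, 105 to 160 and 268 to 365 lag genes and 2 to 7 part of the way; the highest of the higher and of the lower counts came without WT Day 4 replicate 1. DESeq2 gave 653 higher and 317 lower genes. Replicate numbers showed no clear pairing of the mutant Day 6 and WT Day 4 libraries, whose same-numbered deviations correlated at -0.102, 0.058 and -0.061. Among the other pairs of cultured groups this correlation ran from -0.084 to 0.273. The highest was between replicate 1 of the mutant at Day 4 and of WT at Day 4. A fit with the replicate number as a block gave 657 higher and 315 lower genes and 490 lag genes, 458 of them shared with the 475. Depth limits the low genes: 3 reads in 1 library correspond to 0.28 to 0.783 CPM.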

Other observations

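Of 10 SMR and KRP genes, inhibitors of the cell cycle kinases, none was called at |log2FC| above 1 in either direction, with a median of 0.12 for the mutant at Day 6 over WT at Day 4; 3 were level by the definition above and 7 met no definition. Of 11 genes of the DNA damage response none was called either, but the median was -0.62, only 1 was level and 10 met no definition, and 7 lay below every WT Day 4 library with none above. Such separation was common: of all 18143 genes tested, 5301 lay below and 5072 above every WT Day 4 library. For the counts that follow, 9.83% of all genes were higher and 7.52% lower at this limit. Cellulose synthases gave 1 lower of 6 and chlorophyll synthesis genes 1 lower of 24. Jasmonate synthesis genes gave 1 higher and 4 lower of 12, and the JAZ repressors of jasmonate response 1 lower of 11. Senescence markers gave 4 higher and none lower of 12, with a median of 0.58. Of 12 markers of darkness and starvation, 1 was higher and 3 lower, with a median of 0.04 in the mutant at Day 6 and 0.93 in WT at Day 6, over WT Day 4. Among suberin and cutin genes, 2 of 5 were higher, one of them *FAR4*, which makes fatty alcohols of suberin, with 22.7, 24.2 and 22.7 CPM in the mutant at Day 6 and 1.49, 2.21 and 1.31 CPM in WT at Day 6, against 1.13, 1.17 and 0.509 CPM in WT at Day 4 (log2FC 4.6 ± 0.37, FDR 7.74e-09).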
